A study of Mus musculus with 14 samples.

Results

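Deletion of Cep120 was compared directly with deletion of Pkd1 in ureteric bud cells of the embryonic mouse kidney at E13.5. The comparison used 8 of the 14 RNA-seq libraries of the series: 5 labelled Cep120 KO (libraries 2, 4, 5, 6 and 7) and 3 labelled Pkd1 KO (libraries 1, 2 and 3), chosen by their titles. Both deletions were made with Hoxb7-Cre, a transgene driven in the ureteric bud lineage that also makes GFP, and the cells were collected by sorting for GFP. The 6 other libraries, 3 controls of each line, served only to mark differences between the mouse lines. Their genotype label is WT, their titles read heterozygous, and they carry the same GFP by which cells were sorted. The labels give neither the exons deleted nor strain, sex, litter or pooling of embryos, and their protocol text describes the Cep120 line and wild type. They also do not say whether replicates are separate embryos, so a p-value here reflects only how these libraries vary, part of which can be technical.

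The ureteric bud is the epithelial outgrowth that branches to form the collecting ducts. Cep120 is a centriole protein needed to build centrioles and cilia, and loss of centrosomes is known to activate p53 through a pathway of 53BP1, USP28 and p53 that watches over mitosis. Pkd1 encodes polycystin-1, a membrane protein of the primary cilium whose loss in tubule cells gives cysts, and which is not needed to make centrosomes.

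The targeted genes were read first, in CPM (counts scaled to a common library size, here by TMM), the scale of every level below. Throughout, Cep120 KO values are listed in the order of libraries 2, 4, 5, 6 and 7, and those of the 3-library groups in the order 1, 2 and 3. Pkd1 was at 2.68, 2.39 and 2.42 CPM in Pkd1 KO, below each of the 11 other libraries. It was at 3.61, 14.5, 15.6, 12.4 and 13.9 CPM in Cep120 KO and between 3.34 and 5.89 CPM in the 6 controls. Cep120 was at 7.87, 19.5, 21.2, 13.1 and 16.5 CPM in Cep120 KO and at 9.07, 9.91 and 12.2 CPM in Pkd1 KO. Cep120 RNA was thus not called lower in the libraries labelled Cep120 KO (log2 difference 0.59, SE 0.31, edgeR adjusted p = 0.228), and the 6 controls ran from 6.41 to 13.6 CPM. These are counts over the whole gene, and without the deleted exons the Cep120 total does not check the label. "Cep120 KO" below means the libraries labelled so, in every direction given.

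The 5 Cep120 KO libraries were not alike. Libraries 4 and 5 differed from each other by 4.55 times the sampling variance per gene and libraries 6 and 7 by 30.4 times, while other pairs of that group differed by 144 to 295 times, and pairs within the other groups by 12.6 to 40.3 times. Libraries 6 and 7 held nephron progenitor RNA: Six2, a transcription factor of those cells, was at 127 and 86.1 CPM there, and at most 1.53 CPM in any other library. In libraries 4 to 7 the longest 10% of genes stood 1.00 to 1.35 log2 units higher against the shortest 10% than over the controls, and in the 10 others this value lay between -0.27 and 0.415. For the 10% of genes richest in GC against the poorest 10%, it was 0.413, 0.493, 1.08 and 1.22 in libraries 4 to 7. In the 10 others it was -0.163 to 0.13. Xist, read from the inactive X chromosome, was at 0.524, 50.1, 35.2, 143 and 134 CPM, and Y-linked Eif2s3y at 60.6, 12.1, 14.9, 17.1 and 13.6 CPM. In Pkd1 KO Xist was at 6.75, 9.34 and 0 CPM, and the difference between the KO groups was not called (log2 3.74, edgeR adjusted p = 0.18). Most libraries read both genes. Library 2 had little Xist, and so did library 3 of Pkd1 KO, of the Cep120-line controls (0 CPM) and of the Pkd1-line controls (0.496 CPM). In bulk RNA, fewer cells of a type and less RNA per cell cannot be told apart. Total counts were 16293837 to 23761736 in Cep120 KO and 11347657 to 27967596 in Pkd1 KO.

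Of 16876 genes tested, 268 (1.59%) differed between the KO groups at an adjusted p under 0.05 in edgeR's quasi-likelihood test. Of these 193 (1.14%) were higher in Cep120 KO and 75 (0.444%) lower, with median log2 differences of 2.09 and -1.47, beside a median of 0.11 over all genes. In 2007 genes (11.9%) the 5 libraries did not overlap the 3, with 985 higher (5.84%) and 1022 lower (6.06%). The control groups of the 2 lines differed in 21 genes (0.124%), 18 higher in the Cep120 line (0.107%) and 3 lower (0.0178%), and 4.89% had an unadjusted p under 0.05. This test takes its spread from all 14 libraries, the Cep120 KO ones included. With only the 6 controls 108 genes were called, so line background can be missed here. A called gene was marked as line background where the controls differed the same way and that difference was itself called or was at least 50 percent of the KO difference. This marked 28 of the genes called higher and 16 of those called lower, and left 165 and 59. No gene passed when the line difference was subtracted within the model (smallest adjusted p = 0.122, with 3436 genes, 20.4%, at an unadjusted p under 0.05). DESeq2 called 723 genes in that test and limma-voom 4383. Limma-voom was run with quality weights, which set how much each library counts. They were 3.85 and 3.34 for Cep120 KO libraries 4 and 5, and 0.162, 0.125 and 0.138 for libraries 2, 6 and 7.

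The number of genes called rested on single libraries. Without any 1 of the Pkd1 KO libraries 10 genes were called, and without Cep120 KO library 2 there were 4953. The 268 calls also count Cep120 KO libraries 4 and 5 as separate replicates. These were the closest pair within any group, at 4.55 times the sampling variance, and their independence was not tested. With this pair summed into 1 library, 35 genes were called, 25 higher and 10 lower. Leaving out library 4 alone likewise gave 35. Library 2 was the Cep120 KO library nearest to Pkd1 KO for 154 of the 193 genes higher and 42 of the 75 lower. With library 2 as the only Cep120 KO library, 175 of the 193 and all 75 genes kept their sign. These genes had been called with library 2 included and against the same Pkd1 KO libraries. The kept signs are therefore no separate check. Limma-trend on the deposited log2 values, which moved the median of all genes to 0.36, called 400 higher and 68 lower, and limma-voom called 3488 and 2865. Genes called higher had a median longest transcript of 3621 bases and genes called lower 1885, beside 3027 over all genes tested. With offsets for length and GC content, 132 of the 193 and 52 of the 75 were called again. Of the genes called higher and named in this report, Cenpe, Cep250, Amotl1, Mki67 and Pkd1 have longest transcripts of 7910 to 14164 bases. Those of Plk2 and Ccn1 have 2800 and 2019 bases.

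**Figure D1:**
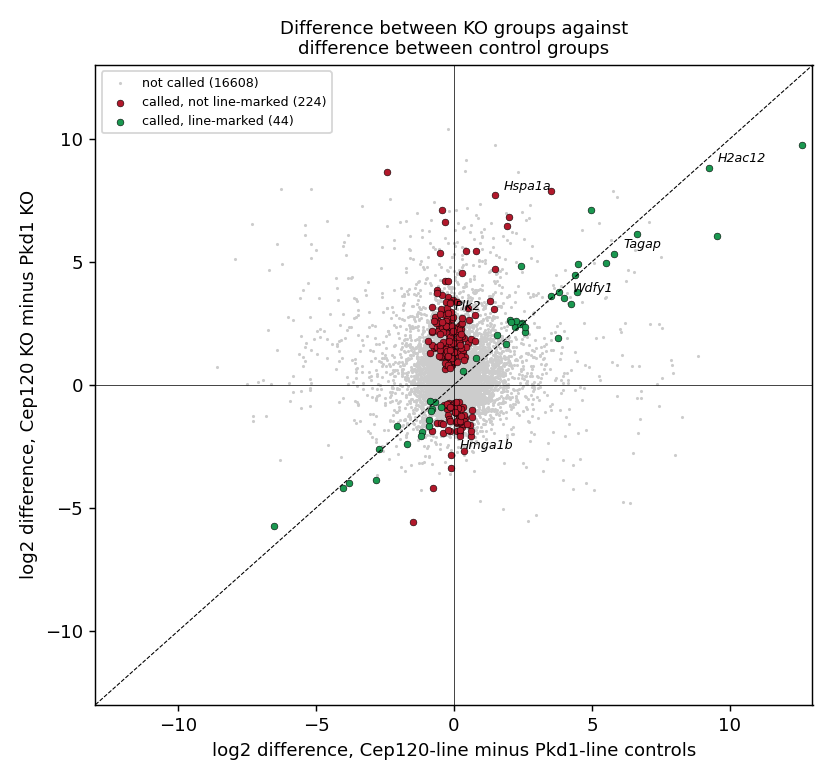
Each point is a gene, with its log2 difference between controls of the 2 lines (horizontal) and between the KO groups (vertical). The 44 called genes marked as line background lie mostly along the dashed line of equal differences, and most of the 224 others lie near 0 on the horizontal axis.

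Some of the genes that p53 activates were higher in Cep120 KO. Of 30 measured targets, 7 were called higher, beside 1.14% of all genes tested, 0 were called lower and 23 did not pass. In 11 the Cep120 KO libraries all lay above Pkd1 KO, beside 5.84% of all genes tested. The list's median log2 difference was 1.10, beside 0.11 over all genes, and its median between the control groups was -0.07. In each Cep120 KO library the list median, taken relative to the Pkd1 KO mean, lay between 0.58 (library 2) and 1.17. It lay between -0.10 and 0.06 in Pkd1 KO libraries and between 0.00 and 0.18 in controls, so the 5 libraries stood apart from the other 9.

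Plk2, a polo-like kinase that takes part in centriole duplication and is a p53 target, had the smallest adjusted p of the p53 list. Plk2 (13:110395046-110400844, plus strand, GRCm38) was at 40.1, 83.5, 80.3, 91.0 and 88.6 CPM in Cep120 KO and at 12.5, 11.9 and 7.88 CPM in Pkd1 KO. Every Cep120 KO library was above all 9 others, since the controls ran from 9.20 to 19.7 CPM. The log2 difference was 2.83 (SE 0.33, adjusted p = 0.00172), and with library 2 alone it was 1.89 (adjusted p = 0.0338). It was the only gene not marked as line background that was called whichever 1 of the 14 libraries was left out, where its largest adjusted p was 0.029. With the line difference subtracted it was 3.15 (SE 0.46), at the adjusted p of 0.122 given above.

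Eda2r, a receptor for ectodysplasin A2, had its highest level in library 2. It was at 10.3, 5.6, 6.98, 4.51 and 1.81 CPM against 1.02, 0.95 and 0.899 CPM, with no overlap (log2 2.60, SE 0.48, adjusted p = 0.0296). In library 2 alone the log2 difference was 3.41 (adjusted p = 0.00389). Ccng1, cyclin G1, was also highest in library 2 and lowest in library 7, at 65.0, 48.5, 46.3, 35.5 and 23.0 CPM against 18.3, 18.1 and 13.3 CPM (log2 1.40, adjusted p = 0.0449). Phlda3, which holds back Akt signalling, was at 9.24, 10.5, 12.5, 14.5 and 35.9 CPM against 2.96, 4.71 and 1.73 CPM (log2 2.39, SE 0.54, adjusted p = 0.0462). Ercc5, a nuclease of nucleotide excision repair, was highest in libraries 6 and 7, at 3.34, 9.33, 10.9, 19.3 and 19.8 CPM against 2.78, 2.09 and 1.80 CPM (log2 2.51, SE 0.53, adjusted p = 0.0394). Aen, an exonuclease of apoptosis, and Psrc1, a spindle protein, were higher by 0.81 and 1.09 on the log2 scale (adjusted p = 0.0434 and 0.0495). The 6 called targets other than Plk2 lost their call without any 1 Pkd1 KO library, at adjusted p from 0.123 to 0.2.

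Other well-known targets did not pass. Cdkn1a, the cell cycle inhibitor p21, was at 85.9, 93.1, 110, 80.7 and 45.0 CPM against 70.8, 44.2 and 46.3 CPM (log2 0.63, adjusted p = 0.129). The groups overlapped through Cep120 KO library 7 and Pkd1 KO library 1. Mdm2, the ligase that degrades p53, was at 15.5, 28.8, 29.8, 42.6 and 40.2 CPM against 15.6, 16.8 and 10.2 CPM (log2 1.15, adjusted p = 0.0602). Bax and Bbc3, which promote apoptosis, did not overlap between groups, at log2 0.53 and 2.64 (adjusted p = 0.0796 and 0.0638). Trp53 itself was at log2 -0.07 (adjusted p = 0.78). None of the 9 genes of the mitotic surveillance list was called, with a median of 0.68, and none of the 19 apoptosis regulators, with a median of -0.10.

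The promoters of 15 of the 17 called p53 target, immediate early and heat shock genes were in the RefSeq table (GRCm38.p6), and Egr1 and Ier2 were not. The 250 bases before each start were searched on both strands for the p53 half-site, the CRE (TGACGTCA), the CArG box and the heat shock element. Of 32851 such windows 7.13% held a p53 half-site, 1.55% a CRE, 1.47% a CArG box and 0.466% a heat shock element. Ccng1 and 1 of the 2 overlapping windows of Aen held a p53 half-site, and Plk2 and Dusp1 a CRE, which describes letters only. The first 3 are shown because these p53 targets were called higher, with the match in capitals, at chr13:110394794-110395043 (plus strand), chr11:40755287-40755536 (minus) and chr7:78895808-78896057 (plus).
Plk2: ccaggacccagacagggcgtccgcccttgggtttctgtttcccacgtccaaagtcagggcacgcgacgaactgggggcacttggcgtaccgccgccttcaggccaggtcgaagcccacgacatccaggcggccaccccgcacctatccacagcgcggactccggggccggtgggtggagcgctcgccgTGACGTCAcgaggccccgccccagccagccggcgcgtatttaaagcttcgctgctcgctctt
Ccng1: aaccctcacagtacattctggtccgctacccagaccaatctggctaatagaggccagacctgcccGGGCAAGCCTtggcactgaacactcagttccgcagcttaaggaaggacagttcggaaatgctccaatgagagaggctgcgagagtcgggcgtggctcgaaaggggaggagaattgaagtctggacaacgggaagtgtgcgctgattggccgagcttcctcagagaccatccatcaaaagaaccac
Aen: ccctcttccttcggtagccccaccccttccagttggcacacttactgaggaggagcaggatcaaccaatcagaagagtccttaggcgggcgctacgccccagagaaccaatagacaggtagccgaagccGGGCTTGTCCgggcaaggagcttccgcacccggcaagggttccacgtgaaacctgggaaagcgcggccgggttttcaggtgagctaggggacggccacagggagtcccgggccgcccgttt

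**Figure D2:**
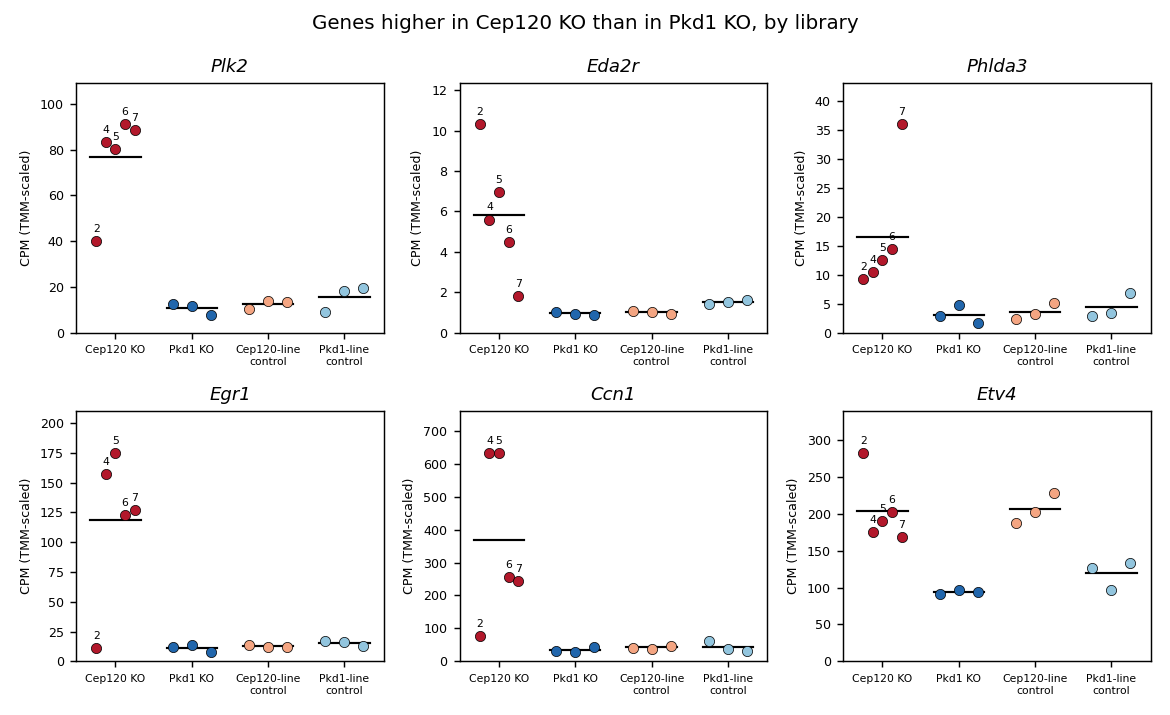
CPM of 6 genes in each library by group, with a bar at the group mean and numbers naming the Cep120 KO libraries. Plk2, Eda2r and Phlda3 lie above all 9 other libraries in every Cep120 KO library, while for Egr1 library 2 lies among the others at 11.2 CPM and for Etv4 the Cep120-line controls are high too.

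Immediate early genes, which respond within minutes to growth factors and stress, were the list with the most calls. Of 19 measured, 9 were called higher and 0 lower, beside 1.14% and 0.444% of all genes tested. The list's median log2 difference was 2.38, beside 0.11 over all genes. In library 2 this list had a median of 0.48, beside 1.93 to 2.90 in the 4 other Cep120 KO libraries and at most 0.02 in Pkd1 KO. Egr1, a zinc finger factor, was at 11.2, 157, 175, 123 and 127 CPM against 11.8, 14 and 8.16 CPM (log2 3.39, SE 0.62, adjusted p = 0.0296). Library 2 lay within the Pkd1 KO range, and the difference with it alone was -0.03. Atf3, a stress-induced factor, was at 2.82, 44.5, 44.7, 29.2 and 10.3 CPM against 1.48, 0.38 and 0.207 CPM, with no overlap (log2 5.36, SE 1.07, adjusted p = 0.0382). Klf6, another zinc finger factor, was at 52.3, 172, 178, 132 and 113 CPM against 31.5, 34.5 and 47.0 CPM (log2 1.78, SE 0.36, adjusted p = 0.0383). Junb, a subunit of AP-1, was highest in libraries 6 and 7, at 1.51, 6.45, 6.77, 56.7 and 50.8 CPM against 0.555, 0.722 and 0.346 CPM (log2 5.45, adjusted p = 0.0421). Fos, Jund, Ier2, Dusp1 and Nr4a1 were also called, at 1.34 to 3.13 on the log2 scale. Among 12 heat shock genes only Hspa1a, an inducible chaperone, was called, at 1.90, 11.2, 9.28, 100 and 158 CPM against 0.555, 0.19 and 0.138 CPM (adjusted p = 0.0394). Hspa1b, its near copy, may share reads with it. Of 15 integrated stress response genes 1 was called, Atf4, at log2 1.17 (adjusted p = 0.0468). The single call in each of these lists stands beside 1.14% of all genes tested called higher, and says little about the list.

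Lists tied to growth and to the centrosome and cilium had between 0 and 3 members called higher, beside 1.14% of all genes tested. Mki67, a marker of dividing cells, was at 4.26, 73.5, 70.9, 116 and 103 CPM against 7.31, 7.82 and 6.02 CPM (log2 3.38, SE 0.73, adjusted p = 0.0421). With library 2 alone its difference was -0.74. Cenpe, a kinetochore motor, was the second of 25 mitosis genes called (log2 2.95), and the list median was 0.30. None of 25 DNA replication genes was called (median -0.03). Among 14 YAP targets 3 were higher: Ccn1, a matricellular protein, and Amotl1 and Amotl2, angiomotins that bind YAP. Ccn1 was at 76.3, 632, 633, 257 and 245 CPM against 30.3, 27.1 and 44.5 CPM, with no overlap (log2 3.44, SE 0.59, adjusted p = 0.0241). The angiomotins overlapped through library 2, where they were at 14.9 and 7.67 CPM. Pdgfa, a growth factor for stromal cells, was called among 15 profibrotic factors, at 18.2, 31.8, 30.6, 36.2 and 42.4 CPM against 11.8, 11.5 and 14.6 CPM (log2 1.34, SE 0.24, adjusted p = 0.0276).

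Calls in the lists of this paragraph stand beside 1.59% of all genes tested, and a single call says little about a list. None of 26 listed centriole and centrosome genes was called (median 0.66), while Cep250, which was not listed, was called and is given below. The list median in library 2, -0.27, was below all 3 Pkd1 KO libraries. Cep57 had the smallest p, at 40.8, 37.4, 35.1, 65.7 and 58.3 CPM against 26.6, 25.7 and 29.5 CPM (log2 0.80, adjusted p = 0.0614). Among 36 cilium genes Bbs4, a BBSome subunit, was called, at 5.97, 22.8, 20.5, 24.5 and 23.9 CPM against 3.70, 5.05 and 3.25 CPM (log2 2.28, SE 0.43, adjusted p = 0.0296). Pkd1 was the only one called of 18 cystic kidney disease genes (log2 2.27, SE 0.42, adjusted p = 0.0296), and its deletion defines the Pkd1 KO group. Its mean was 2.5 CPM in Pkd1 KO and 3.93 CPM in the controls of that line. In Cep120 KO its mean was 12 CPM, beside 4.5 CPM in the Cep120-line controls. With library 2 alone its log2 difference was 0.52. In 13 genes called higher, Pkd1 among them, the Pkd1 KO libraries lay below all 11 others, beside 52 (0.308%) of all genes tested. In 68 genes called higher the Cep120 KO libraries lay above all 9 others, beside 251 (1.49%) of all genes tested. Both counts are of genes called on these same KO libraries, so an excess over the share of all genes is built in. Pkd2, the partner channel of polycystin-1, was at log2 0.35 (adjusted p = 0.446). Of 24 cAMP and mTOR signalling genes and 13 Hedgehog genes none was called.

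Among the other genes ranked by the gap between the closest libraries, Cep250, which links the 2 centrioles, was at 2.75, 5.55, 6.12, 28.2 and 29.1 CPM against 0.555, 0.646 and 0.415 CPM (log2 4.71, SE 0.88, adjusted p = 0.0296). Hoxb4, a homeobox factor, was more even, at 11.1, 16.6, 16.3, 12.3 and 9.49 CPM against 5.00, 4.44 and 4.29 CPM (log2 1.52, SE 0.25, adjusted p = 0.019). Mcam, an adhesion molecule, was at 9.57, 15.9, 18.2, 12.2 and 8.60 CPM against 3.33, 4.79 and 2.01 CPM (log2 1.92, adjusted p = 0.0383). Syde1 was at 6.69 to 10.3 CPM against 1.80 to 3.05 CPM. For Mtfr2, a mitochondrial protein, the Cep120-line controls were at 11.5 to 14 CPM, near the Cep120 KO range of 5.95 to 18.4 CPM, against 0.608 to 2.14 CPM in Pkd1 KO. Cldn11, a claudin, and Trim11, a ubiquitin ligase, completed the ranked genes, at log2 2.53 and 2.93.

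In all 75 genes called lower the groups did not overlap, as in 150 of the 193 called higher. Over all genes tested, 6.06% were lower and 5.84% higher without overlap. The called genes were selected on these same libraries, so their larger shares are built in. Mogat2, an enzyme of triglyceride synthesis, was at 6.56, 5.92, 5.58, 4.80 and 3.41 CPM against 15.9, 13.2 and 15.1 CPM (log2 -1.49, SE 0.21, adjusted p = 0.00744). The 6 controls were at 13.6 to 15.7 CPM, level with Pkd1 KO. Ethe1, a mitochondrial enzyme that clears sulfide, was at 53, 22.4, 21, 29.2 and 30.9 CPM against 115, 119 and 111 CPM (log2 -1.87, SE 0.27, adjusted p = 0.0106). Its Cep120-line controls, at 74.7, 69.5 and 38.9 CPM, also lay below those of the Pkd1 line. Asb4, a subunit of a ubiquitin ligase, was at 116, 119, 112, 30.7 and 47.0 CPM against 261, 272 and 213 CPM (log2 -1.55, SE 0.34, adjusted p = 0.0462). Fgd2, an activator of Cdc42, and Tmed6, of the secretory pathway, were lower too (log2 -1.56 and -1.86). Gask1b, Tent5c, Gstm6, Rsad2 and Tatdn3 were lower as well (log2 -1.11 to -1.55), at levels of at most 21.8 CPM in any KO library.

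Copies of a gene complicated 2 of the lower genes. Glo1, which detoxifies methylglyoxal, was at 259, 271, 220, 119 and 114 CPM against 444, 497 and 569 CPM (log2 -1.36, SE 0.27, adjusted p = 0.0382). Its pseudogene Glo1-ps, named after its values were seen, was lower too (log2 -2.07, adjusted p = 0.0296), and the 2 may share reads. Hmga1b, a near copy of the chromatin protein gene Hmga1, was at 68.0, 265, 121, 41.8 and 32.1 CPM against 721, 609 and 927 CPM (log2 -2.83, adjusted p = 0.0382). Hmga1, named after its values were seen, went the other way (log2 1.73, adjusted p = 0.0205). The sum of both was 683 to 1155 CPM in Cep120 KO and 783 to 1202 CPM in Pkd1 KO, and how reads were divided between the copies was not tested.

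Glycolysis genes had 2 of 19 called lower and 0 higher, beside 0.444% and 1.14% of all genes tested. Their median was -0.53, and 8 were lower without overlap, beside 6.06% of all genes tested. Ldha, lactate dehydrogenase A, was at 2300, 1280, 1171, 969 and 979 CPM against 2920, 3216 and 3376 CPM (log2 -1.24, SE 0.25, adjusted p = 0.0382). Pgk1, phosphoglycerate kinase, was at 656, 418, 385, 308 and 331 CPM against 743, 815 and 865 CPM (log2 -0.94, adjusted p = 0.0476). Their library 2 values were the nearest to Pkd1 KO. It was the only list of 32 whose median was lower in all 5 Cep120 KO libraries than in all 3 of Pkd1 KO, and 6 lists were higher in all 5. The 13 genes encoded by mitochondrial DNA had a median of -0.89 with none called. All genes with a symbol starting in mt-, not only these 13, made up 4.69, 2.15, 2.24, 3.61 and 2.98% of counts in Cep120 KO. In Pkd1 KO they made up 4.84 to 5.15%. None of 20 respiratory chain genes was called (median -0.50), nor of 21 cholesterol synthesis genes (median -0.38).

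**Figure D3:**
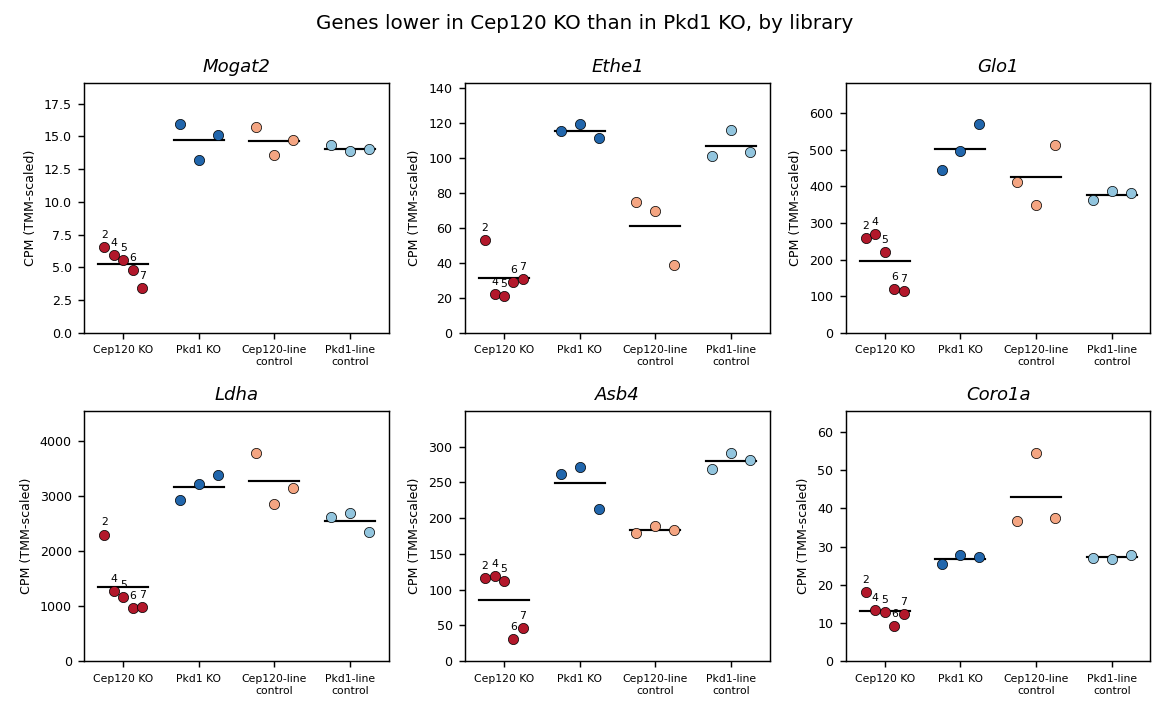
CPM of 6 genes called lower in Cep120 KO, in each library by group, with a bar at the group mean and numbers naming the Cep120 KO libraries. All 5 Cep120 KO libraries lie below the 3 Pkd1 KO libraries for each gene, and for Asb4 the Cep120-line controls lie between them.

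Line-marked genes made up most of the calls that held when single libraries were left out. Of the 8 genes called whichever library was left out, 7 were marked as line background. All 21 genes that differed between the controls had the same sign between the KO groups, and 15 of them were called there too. Tagap, a gene known from lymphocytes, was at 8.26, 17.8, 12.7, 7.49 and 7.32 CPM in Cep120 KO and 8.34, 9.69 and 13.8 CPM in its controls. It was at most 0.415 CPM in all 6 libraries of the Pkd1 line (log2 5.34 between KO groups, adjusted p = 0.000251). Wdfy1, an endosomal adaptor, was at 25.3 to 76.4 CPM in Cep120 KO and 35.7 to 52.3 CPM in its controls, against at most 4.70 CPM in the Pkd1 line. The histone genes H2ac12 and H2ac13 followed the line as well, but their near-identical family can share reads. Med1, a Mediator subunit, went the other way, at 39.3 to 87.7 CPM in Cep120 KO and 184 to 211 CPM in Pkd1 KO, with 32.7 to 75.5 CPM and 232 to 256 CPM in their controls. Lyrm7, Acer2 and Psmb5 were marked by size, their control differences not being called. Of the 21 genes, 11 (52.4%) were pseudogenes, beside 6.52% of all genes tested.

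Of 15 genes of the ureteric tip 1 was called, beside 1.59% of all genes tested. Etv4, a target of RET signalling at the branching tip, was at 283, 175, 190, 203 and 169 CPM against 91.5, 96.8 and 94.7 CPM (log2 1.11, SE 0.19, adjusted p = 0.0241). Its Cep120-line controls, at 188, 203 and 229 CPM, were as high, and it was marked as line background. Cldn4, an epithelial claudin, was at 1336, 1882, 1856, 152 and 94.6 CPM against 127, 98.5 and 212 CPM (log2 2.87, adjusted p = 0.0708). Libraries 6 and 7 sat with the Pkd1 line, whose controls were at 116 to 149 CPM, and libraries 2, 4 and 5 above the Cep120-line controls, at 851 to 1067 CPM. Without libraries 6 and 7 the adjusted p for Cldn4 was 2.42e-05. The 18 genes of ureteric and epithelial identity had 0 calls and a median of 0.14, with a summed level of 1457 to 5326 CPM in Cep120 KO and 2421 to 2689 CPM in Pkd1 KO. Hoxb7, which marks the lineage, was at 69.4 to 99.5 CPM against 53.7 to 64.4 CPM. None of 17 trunk genes and none of 14 Wnt target genes was called.

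Markers of other cells varied between libraries within a group. Their calls below stand beside 1.59% of all genes tested. The 12 nephron progenitor markers summed to 33.8 to 1066 CPM in Cep120 KO and 54.9 to 71.8 CPM in Pkd1 KO, with 0 called and list medians, relative to Pkd1 KO, of 7.23 and 6.79 in libraries 6 and 7. Gdnf, made by those cells, was listed at 0 in all 3 Pkd1 KO libraries. Wnt4, of the nascent nephron, was the 1 of 11 called, at 0.721, 6.45, 5.83, 41.7 and 31.1 CPM against 1.11, 0.57 and 0.553 CPM (log2 4.57, adjusted p = 0.0477), and -0.03 with library 2 alone. Stromal markers summed to 15.7 to 334 CPM against 7.74 to 97.1 CPM, and erythroid markers to 5.57 to 1135 CPM against 15.1 to 3757 CPM, with 0 called. Of 15 macrophage and leukocyte markers, 10 had a positive difference and the median was 0.29. The 1 called was Coro1a, a leukocyte actin regulator, which was lower, at 9.24 to 18.1 CPM against 25.4 to 27.7 CPM (log2 -1.02, SE 0.20, adjusted p = 0.0382). Of endothelial, platelet and neural markers 0 were called. The part of these cells in the genes called was not tested beyond leaving libraries out: without libraries 6 and 7, 181 genes were called higher and 75 lower. Of the genes called with all libraries, 101 of the 193 and 41 of the 75 were called again there.

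**Figure D4:**
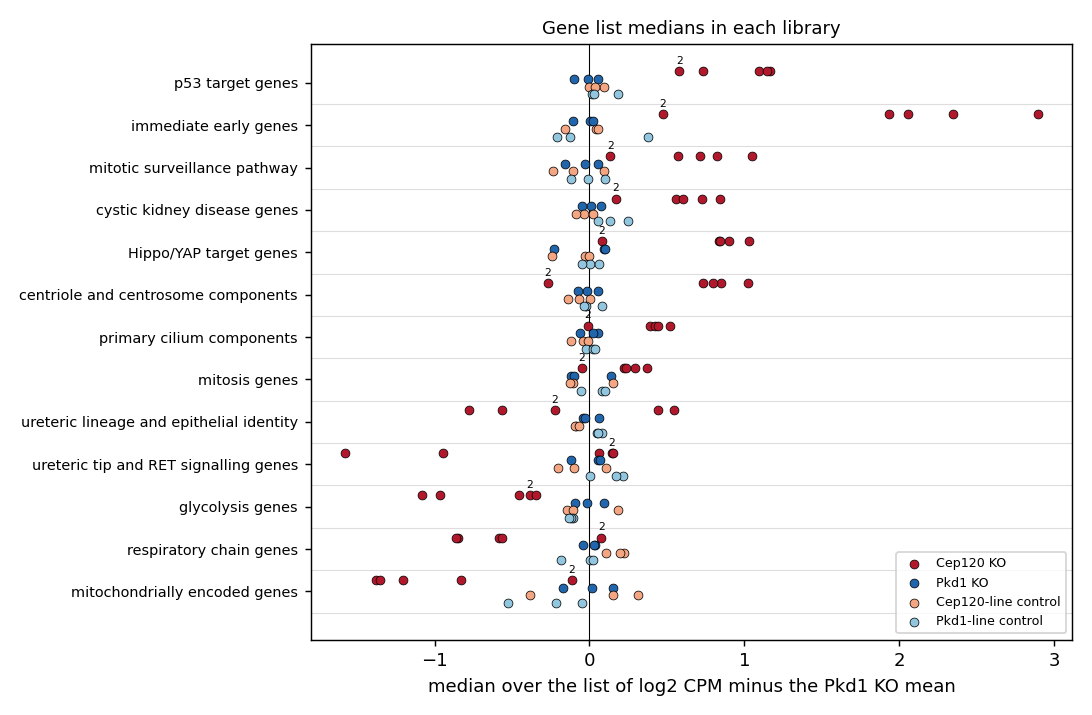
For 13 lists, each point is a library's median of log2 CPM minus the Pkd1 KO mean, in 4 groups, with the Cep120 KO library 2 numbered. The p53 and immediate early lists lie to the right in all 5 Cep120 KO libraries and glycolysis to the left, while library 2 lies within the Pkd1 KO range for the cilium and mitochondrially encoded lists and below it for the centriole list.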

How the data were processed

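Bulk RNA-seq of 14 libraries was analysed, of which 8 KO libraries form the comparison. Each estimated count per gene was deposited by the authors without normalization. Of these 88.4 to 91.6% were whole, and all were rounded (at most 0.00034% of a library). The deposited log2 values are the authors' log2 CPM and served for 1 alternative. DRAGEN and mm9 are named per the submitters' processing notes, and their role is not given in the sources used here. Per the labels' protocols, cDNA came from a SMARTer Ultra Low RNA kit, which does not mark strand, so antisense genes cannot be told apart. Of 55774 lines 287 repeated a gene and were dropped, which left 55487. Positions, lengths and biotypes for 55141 are from GENCODE (GRCm38), matched by identifier.

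Tests used R 4.3.3 and edgeR 4.0.16: filterByExpr at a minimum count of 10, TMM, and a quasi-likelihood fit of 4 group means over all 14 libraries (10 residual degrees of freedom), with Benjamini-Hochberg adjustment over 16876 genes and a threshold of 0.05. SE is that of the log2 difference. Per-library list medians use log2 CPM with a prior count of 2. Alternatives used DESeq2 1.42.0 and limma 3.58.1, and limma-voom was always run with library quality weights. The procedure was tested on simulated counts with the same spread for every gene and library. That is unlike the uneven Cep120 KO libraries here, so it does not check the calls in these data. Intervals cover the spread between libraries, and counts carry no molecular identifiers.

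The comparison, its genes and its lists were chosen with earlier results of these data known. Named genes are Cep120 and Pkd1, up to 12 in each direction among called protein-coding genes that are not line-marked, have a mean of at least 5 CPM over the 8 libraries and do not overlap, ranked by the gap between the closest libraries, up to 4 line-marked genes in each direction, up to 3 called members of each list or the one with the smallest p, and 5 sex-linked genes. Other list members are quoted as members. Predicted genes were left out of the ranking.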

Additional observations from a re-analysis of the deposited data

Results flagged for a closer look

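Among the 5 Cep120 KO libraries, 108 genes and list medians were examined for a lowest or highest library whose gap to the nearest one exceeds 0.71 of the whole range, Dixon's 95% value for 5 samples, which chance exceeds in about 1 in 20 groups. It was met in 16, and 15 of these were library 2. Library 2 was lowest for Plk2 (40.1 CPM), Mki67 (4.26 CPM), Rfc1 (12.4 CPM), Bbs4 (5.97 CPM), Pkd1 (3.61 CPM), Myc (39.5 CPM), Amotl1 (14.9 CPM), Egr1 (11.2 CPM) and Xist (0.524 CPM). It was highest for mt-Co2 (3798 CPM) and Eif2s3y (60.6 CPM). Its list medians relative to Pkd1 KO were lowest for centriole components (-0.27), cilium components (-0.01), YAP targets (0.08) and profibrotic factors (0.06). Library 7 was highest for the median of platelet markers (-0.94).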

How the results depend on the processing

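The 268 genes called between the KO groups became 1172 without libraries 4 and 5, 35 with these summed, 86 with library 2 alone, 2653 in DESeq2, 468 in limma-trend, 6353 in limma-voom, 742 with no low-count filter and 11 with only the 8 KO libraries. The sum treats libraries 4 and 5, the closest pair within any group, as 1 library. Leaving out each library in turn gave 10 to 4953. The 21 genes between the controls became 47 without libraries 6 and 7, 184 with library 2 alone, 84 in DESeq2, 131 in limma-voom and 108 with only the 6 controls, and leaving out each library gave 12 to 29. The replicate block over the groups numbered 1 to 3 gave 97, but same-numbered libraries share only a number (correlations of -0.124 to 0.107). No paired analysis was possible because the KO groups share only the number 2. The count beyond the line difference, 0, became 1 without libraries 4 and 5, 4 without libraries 6 and 7, 9 with library 2 alone, 723 in DESeq2, 1 in limma-trend, 4383 in limma-voom and 1 with no filter, and 0 to 3126 leaving out each library. DESeq2 size factors changed no call among the 76 named genes, and length and GC offsets ended 10. Of 52 called named genes, 36 lost the call with libraries 4 and 5 summed and 48 with only the 8 KO libraries. Without any 1 Pkd1 KO library, 47 or 48 of the 52 lost it. With library 2 alone the sign turned for Mki67 (-0.74), Cenpe (-0.03), Rfc1 (-0.60), Amotl1 (-0.24), Egr1 (-0.03), Xist (-3.38), Ddx3y (0.25), Eif2s3y (0.59), Kdm5d (0.34), Uty (0.19), Wnt4 (-0.03), Meis2 (-0.51) and Cep120 (-0.41), and without libraries 6 and 7 for Meis2 (-0.21). The cause was not tested.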
